A study of Homo sapiens with 20 samples.

Results

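SNX9, the gene of sorting nexin 9, was read by 1 probe set (17014093) among 12770 on the array, the only one whose single gene symbol was SNX9. Its RNA level was followed through 20 arrays of U-87MG, a human cell line grown from a glioblastoma, with 1 group of 5 arrays for each of DMSO, I3P, HPP and PP. I3P is indole-3-pyruvic acid, HPP is hydroxyphenylpyruvic acid and PP is phenylpyruvic acid, the keto acids of tryptophan, tyrosine and phenylalanine. The cells received a compound at 40 µM, or the solvent DMSO alone at a final concentration of at most 0.2%, and were harvested after 24 h. All 4 groups were labelled as this 1 line in 1 medium, with arrays numbered 1 to 5 as biological replicates, so the results stand for 1 cell line, 1 dose and 1 time. The compounds were tested as possible ligands of AHR, the aryl hydrocarbon receptor, which turns on genes when small aromatic molecules bind it. SNX9 was chosen because it was among the genes past the threshold with I3P against DMSO in an earlier pass over these data, so every comparison that holds I3P arrays is given for SNX9 as a description, with no test. The DMSO arrays entered that choice too, and low DMSO values favour it. Tests of HPP and PP against DMSO are therefore not free of the choice.

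Sorting nexins are proteins that bind phosphoinositides in membranes through a PX domain. SNX9 adds to it an SH3 domain, which binds dynamin and the actin regulator N-WASP, and a BAR domain, which senses or shapes membrane curvature. It is known for bringing dynamin to clathrin-coated pits late in endocytosis and for linking membrane curvature to the assembly of branched actin. SNX18 and SNX33 are its paralogs with the same domain order.

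SNX9 lies on chromosome 6, on the plus strand. The 250 bases before its RefSeq start site (GRCh38.p14, chr6:157822996-157823245) are shown because AHR and its partner ARNT bind DNA at sites with the core GCGTG, and because AHR target genes were also higher in the I3P arrays for which SNX9 was chosen. The minus-strand promoter of STC2 (chr5:173328415-173328664), a gene of a secreted glycoprotein on the AHR target list and among the genes most like SNX9, is set beside it. Both are written from 5′ to 3′ on the strand of the gene, and capitals mark GCGTG or its reverse complement CACGC, which overlap by a base at 1 place in STC2.
SNX9: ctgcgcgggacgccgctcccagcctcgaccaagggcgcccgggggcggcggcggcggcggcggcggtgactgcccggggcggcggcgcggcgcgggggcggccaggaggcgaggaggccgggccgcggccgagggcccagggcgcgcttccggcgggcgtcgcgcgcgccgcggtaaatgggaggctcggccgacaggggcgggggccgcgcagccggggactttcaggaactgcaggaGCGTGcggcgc
STC2: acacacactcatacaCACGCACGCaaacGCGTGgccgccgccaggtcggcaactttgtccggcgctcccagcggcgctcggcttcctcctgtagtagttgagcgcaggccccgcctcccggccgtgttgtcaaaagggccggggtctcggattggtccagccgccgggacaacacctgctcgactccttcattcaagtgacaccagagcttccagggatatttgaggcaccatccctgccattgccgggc

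The SNX9 window held 1 match to GCGTG, whose first base lay 11 bases before the start site, and 0 matches to the longer TNGCGTG. In the STC2 window there were 3 matches to GCGTG and 1 to TNGCGTG. Windows of the other AHR list genes held 0 to 2 matches to GCGTG, such as 0 for CYP1A2, NQO1 and SERPINB2. On either strand, 32.2% of 35116 RefSeq promoter windows of this length held GCGTG, 3.16% held at least 3 matches, and 4.52% held TNGCGTG. A single match, as in SNX9, is therefore common. The window of SNX9 was 83.6% G or C and held 47 CG pairs, and those of SNX18 (72.4% G or C) and SNX33 (2 windows) held 0 matches to GCGTG. A match is a description of the letters and no evidence of binding.

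SNX9 was highest with I3P, and the 5 I3P arrays were the 5 highest of all 20. Levels are log2 values from the robust multi-array average (RMA), so that a difference of 1 is a doubling. In the order of replicates 1 to 5 the I3P arrays read 11.30, 11.39, 11.17, 11.39 and 11.39. The DMSO arrays read 10.92, 10.89, 10.79, 11.06 and 10.91, so the I3P and DMSO groups did not overlap. With HPP the values were 10.98, 11.04, 11.03, 11.16 and 11.04, and with PP they were 11, 10.92, 10.97, 11.02 and 10.99. The HPP and PP arrays lay within or just above the DMSO range, and the highest of them, HPP replicate 4, was lower than the lowest I3P array, replicate 3, by only 0.0048. Across the array 8 genes (0.0709%) had every I3P array above every other array, and 0.461% of genes had every I3P array above every DMSO array. The 7 besides SNX9, named after their values were seen, were ATP6AP1, CARD10, IGFBP4, LACC1, RIPOR3, SLC9A9 and TTYH3.

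**Figure D1:**
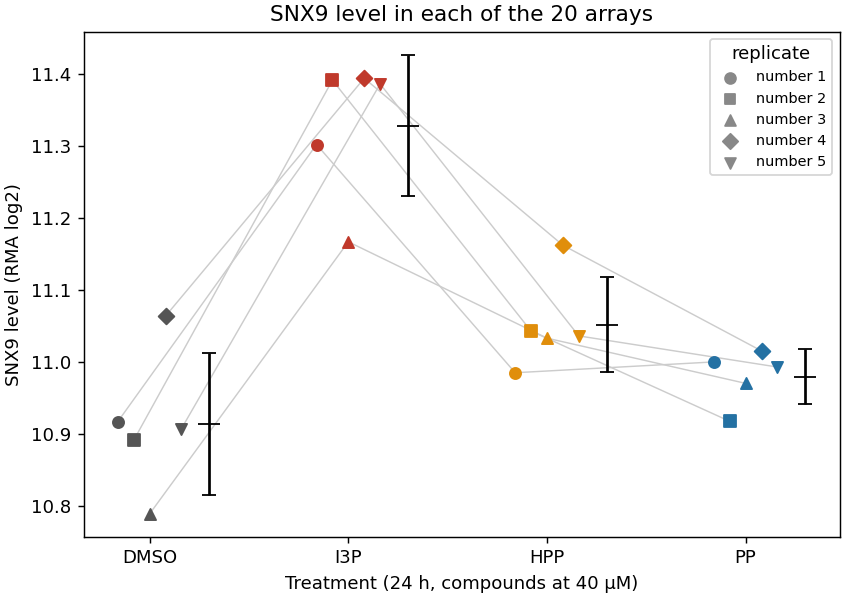
SNX9 level (RMA log2) in each array by treatment, with a marker shape for each replicate number, grey lines joining arrays of the same number, and black bars for the mean and SD (n = 5). The 5 I3P arrays, from 11.17 to 11.39, lie above all DMSO, HPP and PP arrays, of which the highest is at 11.16.

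The group means followed the order I3P, HPP, PP and DMSO. SNX9 was at 11.33 ± 0.098 with I3P, 11.05 ± 0.066 with HPP, 10.98 ± 0.038 with PP and 10.91 ± 0.098 with DMSO (log2, SD, n = 5 each). I3P stood above DMSO by 0.41 in log2 (SE 0.064), which is 1.33-fold, with a 95% interval of 1.22-fold to 1.46-fold. The call by which SNX9 was chosen, an adjusted p under 0.05 in limma, was made for 9 genes or 0.0798% of the 11282 tested, and is given here as the choice and not as a result. That call ended without DMSO replicate 2 or 5, without I3P replicate 2 or 4, without number 1, 2, 4 or 5, and with only the 10 arrays compared, and it held in all 7 fits with the replicate number as a fixed or random block. Of those 9 genes only CARD10, an adaptor of NF-kB signalling, had a smaller fold (1.331 against 1.332), and the others rose by up to 2.04-fold. Among all genes SNX9 ranked 62nd by size of rise, while only 2.15% of genes had a smaller SE, the median SE being 0.107.

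Within each replicate number the I3P array was the highest of the 4. From number 1 to number 5, I3P exceeded the same-number DMSO array by 0.38, 0.50, 0.38, 0.33 and 0.48, with an SD of 0.072 over the 5 pairs, and 5.24% of all genes were likewise higher in every pair. It also exceeded the same-number HPP array in 5 of 5 pairs (by 0.13 to 0.35) and the PP array in 5 of 5 (by 0.20 to 0.47). On average SNX9 was 0.28 higher in log2 with I3P than with HPP (SE 0.064, 1.21-fold) and 0.35 higher than with PP (1.27-fold). Over all genes limma called 0% between I3P and HPP and 0.0886% between I3P and PP, or 0.115% and 0.904% when the number entered the fit as a block. Number 3 gave the lowest I3P and DMSO arrays and the smallest excess of I3P over HPP. Number 4 gave the highest array in each of the DMSO, I3P, HPP and PP groups. Arrays of the same number deviated together across genes, and for SNX9 the number took up 59.4% of the sum of squares within groups, near the median of 54.0% over all genes.

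Treatment accounted for 83.3% of the whole sum of squares of SNX9 over the 20 arrays, the replicate number for 9.94% and the rest for 6.80%. The median gene had 9.41% between treatments and 47.0% between numbers. SNX9 had the highest treatment share of the 11282 genes. This rank is a description, since the I3P arrays that raise it are those for which the gene was chosen.

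With HPP, the keto acid with a hydroxyphenyl ring in place of the indole, SNX9 was slightly above DMSO, but the difference did not pass the test over all genes. It was 0.14 in log2 (SE 0.064, 1.10-fold, 95% interval 0.0054 to 0.27), with an adjusted p of 1.00 by limma, against a background of 0% of genes called. When the number entered as a block the difference stayed the same by construction, the interval was 0.031 to 0.24 and limma's adjusted p was 0.944, where 0.0443% of genes were called. HPP exceeded DMSO in 5 of 5 same-number pairs, by 0.068, 0.15, 0.24, 0.098 and 0.13, as it did for 3.44% of all genes. The highest DMSO array, at 11.06, nonetheless lay above 4 of the 5 HPP arrays. Taken alone, an exact 2-sided permutation test of the 10 arrays gave p = 0.0397 for SNX9, and 0.0595 after adjustment over the 3 comparisons without I3P. That test ignores the pairing by number, and exact 2-sided sign flips within the 5 pairs, which cannot go below 0.0625, gave p = 0.0625, or 0.188 adjusted over the 3. Since the DMSO arrays were used to choose SNX9, neither these p-values nor the intervals above are free of that choice.

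With PP, which has a plain phenyl ring, SNX9 was at 0.065 above DMSO (1.05-fold, 95% interval -0.067 to 0.20), less than the SD among DMSO arrays. Limma's adjusted p was 1.00 without and with the replicate block, where 0% of genes were called in either fit. PP exceeded DMSO in 4 of 5 same-number pairs, the exception being number 4 at -0.048. An exact 2-sided permutation test gave p = 0.190, and exact sign flips within pairs 0.188. Like those for HPP, these values rest on the DMSO arrays used in the choice of SNX9.

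HPP and PP differ by 1 ring hydroxyl group, and no difference in SNX9 between them passed. HPP was higher by 0.073 in log2 (95% interval -0.060 to 0.21), with an adjusted p of 1.00 by limma, or 0.927 with the block, where 0.0266% of genes were called. It was higher in 4 of 5 pairs. The interval leaves room for a difference of up to 1.15-fold. The exact 2-sided permutation test over these 10 arrays, which ignores the pairing, gave p = 0.0317, and 0.0595 adjusted over the 3 comparisons. Exact sign flips within the 5 pairs gave p = 0.125, or 0.188 adjusted. Neighbours in the order DMSO, PP, HPP were thus not told apart by the fit over all genes, and I3P stood apart from each of them by more than their SDs. The arrays measured whole cultures, so a higher level per cell and a larger share of cells with SNX9 RNA cannot be told apart.

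**Figure D2:**
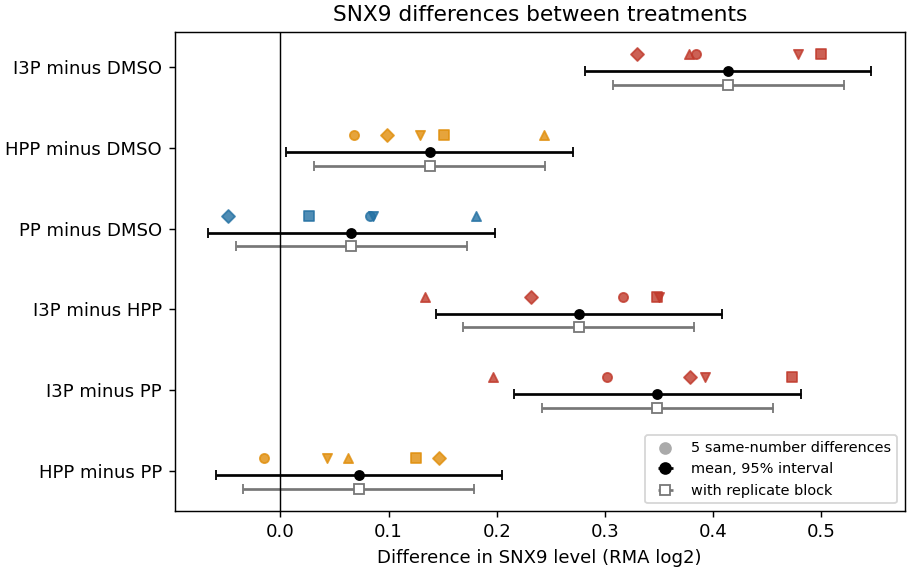
Differences in SNX9 level (RMA log2) for the 6 pairs of treatments. Coloured markers are the 5 same-number differences, with the marker shapes of the replicate numbers, black circles the mean with the 95% interval of the fit, and open squares the same with the replicate block. The 3 comparisons with I3P lie between 0.28 and 0.41, and the other 3 between 0.065 and 0.14.

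Over all 20 arrays the genes whose levels followed SNX9 most closely by Pearson's r were mostly genes that were also higher with I3P. They were ADORA2B, a receptor for adenosine (r = 0.85, Spearman's rho 0.84), TBC1D8 (r = 0.85, rho 0.72), CARD10 (r = 0.82, rho 0.75), SGSH, a lysosomal sulfatase (r = 0.82, rho 0.86), and STC2 (r = 0.82, rho 0.71). PINK1, a kinase of mitochondrial quality control (r = 0.81, rho 0.75), THBS1, the matrix protein thrombospondin (r = 0.81, rho 0.63), and LACC1 (r = 0.81, rho 0.73) followed. These 8 were the only genes with r above 0.80. The central 95% of the 11281 other genes had r from -0.51 to 0.52. All arrays share the treatments and the replicate numbers, so these values describe likeness over 20 arrays that are not independent.

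The highest of these, ADORA2B, was at 10.36 ± 0.14 with I3P, 10.13 ± 0.13 with HPP, 9.97 ± 0.13 with PP and 9.93 ± 0.13 with DMSO (log2, SD, n = 5). That is the order of treatments seen for SNX9, which TBC1D8, CARD10 and PINK1 also had. These genes were picked for their likeness to SNX9 over the same arrays. A shared order and a rise with I3P are therefore largely set by the picking. The log2 differences between I3P and DMSO were 0.41 for CARD10, 0.44 for ADORA2B, 0.51 for LACC1, 0.63 for TBC1D8, 0.80 for STC2 and 1.19 for THBS1, and 0.17 for SGSH and 0.34 for PINK1, beside 0.41 for SNX9. The lowest correlations were those of PRKAG2, a subunit of the energy sensor AMPK (r = -0.79), ATG4C, an autophagy protease (r = -0.77), and RPF2, a factor of ribosome assembly (r = -0.77). Their I3P differences from DMSO were -0.37, -0.32 and -0.25.

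**Figure D3:**
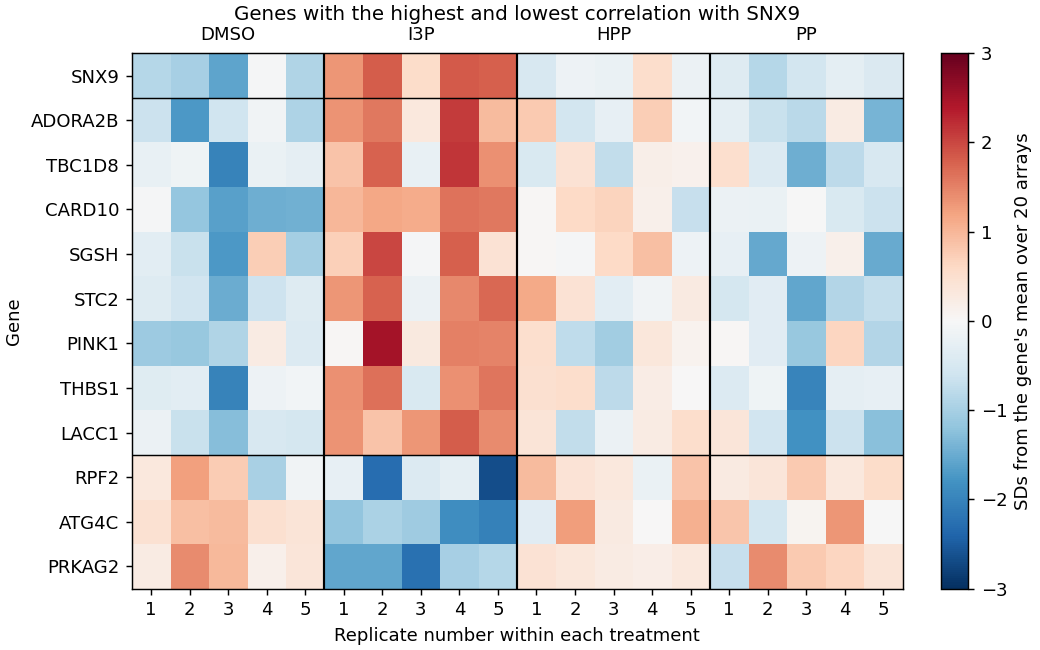
Levels of SNX9 and of the 8 genes with the highest and the 3 with the lowest correlation with it, as SDs from each gene's mean over the 20 arrays, grouped by treatment and ordered by replicate number. SNX9 and the 8 genes below it are high in most I3P arrays, with replicate 3 the palest of the 5 for SNX9, and the 3 genes at the bottom are low there.

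Once the mean of each replicate number was taken away, r spread more widely over all genes, with a central 95% from -0.64 to 0.63 and 58 genes above 0.80, and other genes led. THBS1 (r = 0.94, rho 0.82), INSIG1, a brake on sterol synthesis (r = 0.94, rho 0.83), IGFBP1, which binds insulin-like growth factors (r = 0.94, rho 0.82), the AHR target CYP1B1 (r = 0.93, rho 0.81) and SLC16A6, of the monocarboxylate transporter family (r = 0.93, rho 0.77), were highest. Among the 12 measured AHR target genes r ran from -0.049 for CYP1A2 to the value of CYP1B1. Their median was 0.67, beside a median of 0.011 over all genes. SNX9 was chosen for its rise with I3P, and the AHR list was drawn up with results of these data known. These choices alone can raise that median, so it is a description only. When the treatment means were taken away in place of the number means, the median over the AHR targets was -0.15. The genes most like SNX9 were then PER1, of the circadian clock (r = 0.83), PINLYP (r = 0.82), IFI35, an interferon-induced gene (r = 0.79), DNAAF11 (r = 0.79) and TBC1D17 (r = 0.79), and the lowest were ODAD2 (r = -0.85), CEP170P1 (r = -0.82) and EXTL3 (r = -0.79). None of these 8 was among the leading genes of the other 2 measures.

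TIPARP, an ADP-ribosyltransferase induced by AHR, differed from DMSO by 1.03 with I3P, 0.57 with HPP and -0.065 with PP in log2, and CYP1B1, an AHR-induced cytochrome P450, by 0.79, 0.36 and -0.057. For SNX9 the same 3 differences were 0.41, 0.14 and 0.065. These comparisons share their DMSO arrays. The AHR target list was itself drawn up with results of these data known. Of its 12 measured genes 3 (TIPARP, CYP1B1 and STC2) rose with I3P by limma's adjusted p without the replicate block. Of all genes 0.0798% were called there. With the block AHRR, SERPINB2 and EREG rose as well, where 0.603% of all genes were called. With HPP 0 were called, or 2 (TIPARP and SERPINB2) with the block, beside 0% and 0.0443% of all genes. With PP 0 were called in either fit, beside 0% of all genes in both. Without the block the count with I3P rested on single arrays. It was 0 without any of DMSO replicates 1, 2, 4 and 5 or of I3P replicates 1, 2 and 4, and 1 without I3P replicate 3 or 5, HPP replicate 4 or PP replicate 4. Leaving out number 1, 2 or 4 also gave 0. The receptor gene AHR itself was at -0.076 with I3P (adjusted p = 0.999 by limma).

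No other sorting nexin passed the test. Of 25 measured members besides SNX9, 0 passed limma's test with I3P, HPP or PP against DMSO, without or with the replicate block. Of all genes 0.0798%, 0% and 0% passed with I3P, HPP and PP, and 0.603%, 0.0443% and 0% with the block. Beside such shares a count of 0 does not set this list apart. At an unadjusted p under 0.05 there were 2 of 25 with I3P and 0 with HPP or PP, and 4, 0 and 0 with the block. Over all genes the shares at that p were 4.51%, 1.43% and 1.54% with I3P, HPP and PP, and 11%, 4.97% and 4.25% with the block. The median difference with I3P was 0.024, and 16 of 25 members were above DMSO, beside a median of 0.00 and 50.0% over all genes. The largest differences were those of SNX19, at 0.22 (adjusted p = 0.999 by limma, 0.426 with the block), and SNX32, at -0.40 (adjusted p = 0.999, 0.684 with the block). For SNX32 the 5 I3P arrays ranged from 5.85 to 8.82, with replicate 5 the lowest. Without that array the difference was 0.11, so the value rests on it.

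Neither paralog of SNX9 passed. The I3P arrays averaged 9.41 ± 0.21 for SNX18 and the DMSO arrays 9.30 ± 0.22 (SD over 5 arrays each), a difference of 0.11 with a 95% interval of -0.070 to 0.29 from the fit with the block (adjusted p = 0.674 by limma). SNX33 was at 9.02 ± 0.20 and 8.89 ± 0.17, a difference of 0.13 with an interval of -0.020 to 0.28 (adjusted p = 0.530 by limma with the block). The difference between these genes and SNX9 was not tested. With HPP, SNX18 was at -0.057 and SNX33 at -0.063, and with PP they were at -0.029 and -0.081, where both SNX18 values turned sign when single arrays were left out. Named after their values were seen, SNX17 had the highest correlation with SNX9 in the family over 20 arrays (r = 0.66) and SNX5, a part of endosomal sorting complexes, the lowest (r = -0.62).

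**Figure D4:**
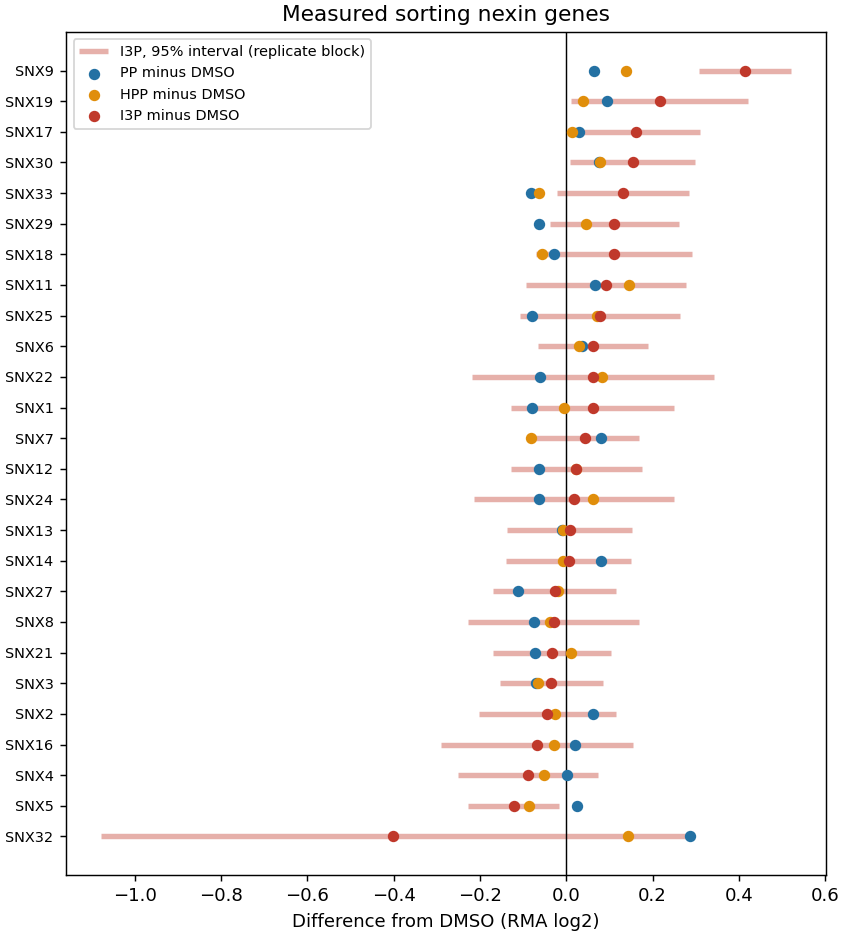
Difference from DMSO (RMA log2) of the 26 measured sorting nexin genes with I3P (red), HPP (orange) and PP (blue), ordered by the I3P difference, with the 95% interval of I3P from the fit with the replicate block. SNX9 is at 0.41 and the next, SNX19, at 0.22, while the wide interval of SNX32 reflects 1 low array.

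Genes of the endocytic machinery that SNX9 works in gave no call either. Of 51 measured genes of clathrin coats, adaptors and dynamins, 0 passed with any compound in either fit. At most 0.603% of all genes were called in any of these comparisons. The median difference of the 51 with I3P was 0.0011, with 26 above and 25 below DMSO. At an unadjusted p under 0.05 in limma 1 gene of 51 was found with each compound without the block, and 3, 5 and 4 with I3P, HPP and PP with it. As shares of 51 these are to be read against the 4.51%, 1.43% and 1.54%, and 11%, 4.97% and 4.25% with the block, of all genes. DNM2, the dynamin that SNX9 binds, was at 10.66 ± 0.18 with I3P and 10.68 ± 0.042 with DMSO, a difference of -0.014 (adjusted p = 0.999 by limma) that turned sign when single arrays were left out. RAB5A, a small GTPase of early endosomes, was at -0.19 (adjusted p = 0.999, 0.536 with the block).

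Of 33 measured genes of branched actin assembly, 0 passed with any compound in either fit, where at most 0.603% of all genes were called. The median of the 33 with I3P was -0.0085, with 14 above and 19 below DMSO. Here 1, 1 and 0 genes had an unadjusted p under 0.05 in limma with I3P, HPP and PP without the block. With the block there were 3, 1 and 1. The shares of all genes at that unadjusted p are those given above. WASL, which encodes N-WASP, was at -0.069 with I3P (adjusted p = 0.999 by limma, 0.679 with the block). The largest differences in this list were in FNBP1L, an F-BAR protein (-0.22), and the GTPase RHOA (-0.21), and neither passed.

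The gene next to SNX9 on its higher-coordinate side among those measured is SYNJ2, synaptojanin 2, a phosphoinositide phosphatase of endocytosis, which is also on the endocytosis list. Its levels in replicates 1 to 5 were 10.46, 10.37, 10.27, 10.43 and 10.28 with I3P and 10.27, 10.08, 10.21, 10.13 and 10.01 with DMSO. I3P was above DMSO in 5 of 5 same-number pairs, by 0.058 to 0.29, although the lowest I3P array, replicate 3, lay just below the highest DMSO array, replicate 1. The mean difference was 0.22 in log2 (SE 0.065, 1.16-fold). It did not pass, with an adjusted p of 0.644 by limma and 0.0715 with the replicate block (95% interval 0.11 to 0.33, not adjusted for the number of genes). SYNJ2 was at 0.028 with HPP and 0.029 with PP. Its correlation with SNX9 was 0.65 over 20 arrays and 0.86 with the number means taken away, where it ranked 26th of 11281 genes, and -0.12 with the treatment means taken away.

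The measured genes in order along the chromosome were TFB1M, NOX3, ARID1B, TMEM242 and ZDHHC14 on one side and SYNJ2, SERAC1, GTF2H5, TULP4 and TMEM181 on the other. Of all 10, 0 passed limma's test with I3P, HPP or PP in either fit, where at most 0.603% of all genes were called. At an unadjusted p under 0.05 in limma there was 1 (SYNJ2) with I3P and 0 with HPP or PP in either fit. With I3P that p was reached by 4.51% of all genes, or 11% with the block, so 1 of 10 is near the background of the fit with the block. Without SYNJ2 their differences with I3P ran from -0.12 for TFB1M to 0.16 for NOX3, and both turned sign with 1 array or replicate number left out. The antisense gene SNX9-AS1 was not analysed here.

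**Figure D5:**
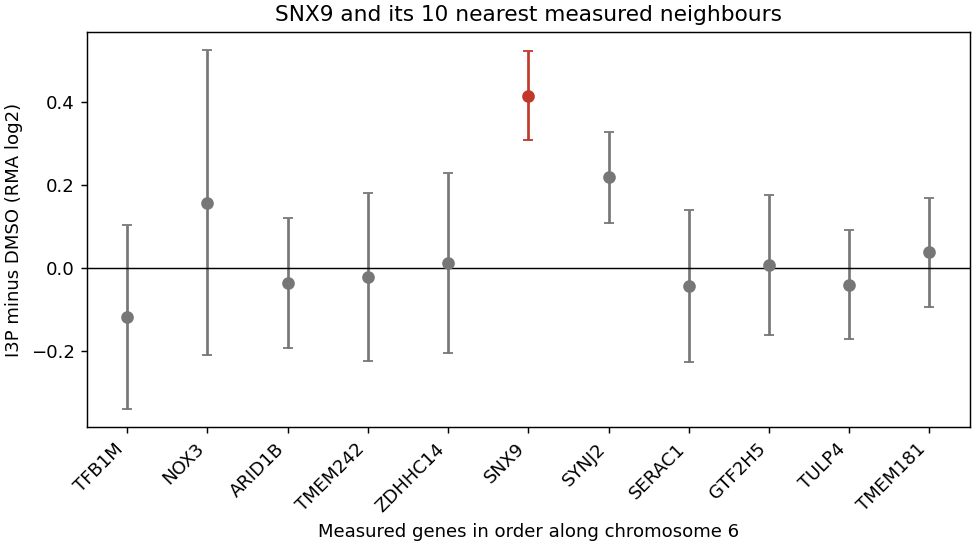
Difference between I3P and DMSO (RMA log2) for SNX9 and the 10 nearest measured genes, in order along chromosome 6, with 95% intervals from the fit with the replicate block. SNX9 is at 0.41, SYNJ2 beside it at 0.22, and the other 9 intervals include 0.

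The 20 array medians lay between 9.23 and 9.28, and no pair of arrays held identical values. For a glioblastoma line 7 markers were measured (VIM, CD44, CAV1, NES, FN1, TNC and GFAP), and S100B, SOX2 and OLIG2 were not analysed here. The mean level of the 7 ranged from 11.34 to 11.44 over the DMSO arrays and from 11.27 to 11.52 over the I3P arrays. The 3 measured of 9 blood and microglial markers ranged from 8.08 to 8.56 with DMSO and from 8.18 to 8.61 with I3P, so that the groups overlapped in both lists. Every p-value sets a difference against the spread between these samples, and the labels do not say what arrays of the same number share.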

How the data were processed

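The deposited values are RMA log2 levels per probe set, for which the submitters' processing notes name oligo and RMA; versions were not given in the sources used here. No probe set had a mean below 7.94, so dim genes are outside what was tested, and RMA can understate fold changes. The number of arrays limits the precision.

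Gene symbols came from the platform annotation and were brought up to date with RefSeq (GRCh38.p14). Of 12770 probe sets, 11316 had 1 symbol, 629 several and 825 none. For 33 genes with several probe sets the brightest was kept, leaving 11282 genes. In limma 3.58.1 (R 4.3.3) 1 model held all 20 arrays with a mean per treatment. Its 2-sided p-values were adjusted by Benjamini-Hochberg over these genes, with a threshold of 0.05. The fit was tested on simulated data. Python 3.11.15 was used for the rest, with figures by matplotlib 3.10.9.

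All 30 pairs of arrays with the same replicate number in different groups correlated above 0.1 in their deviations from group means (0.163 to 0.714), against a median of -0.157 over 120 pairs with different numbers. By this check the numbers pair the arrays, and a second model took them as a block.

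SNX9 and all gene lists were chosen with earlier results of these data known. Named genes were the 8 highest and 3 lowest by r over 20 arrays, 5 highest and 3 lowest apart from treatment, 5 highest apart from replicate number, the called members of each list (at most 4 a comparison) or else its 2 largest I3P differences, the paralogs, DNM2, WASL, AHR, TIPARP, CYP1B1 and 5 neighbours a side. No set test was run. Promoters are RefSeq's for GRCh38.p14, and 6 of the 8 leading genes had one, of which 4 held GCGTG in any window. Of all single windows 32.2% held it, a share per window, which is not the unit of a count of genes. Whether these genes differ from all genes was not tested.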

Additional observations from a re-analysis of the deposited data

Results flagged for a closer look

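In 15 of 198 groups of 5 values checked, 1 array lay far from the other 4, where chance flags about 5%. None was a value of SNX9. In replicate 3, THBS1 was the lowest at 7.63 with DMSO, 8.72 with I3P and 7.65 with PP. STC2 was lowest there at 9.99 with DMSO and 10.54 with I3P, and TBC1D8 at 7.75 with DMSO. AHRR with I3P was highest in replicate 3, at 9.55. In replicate 5, ZDHHC14 was lowest at 7.92 with I3P and 8.04 with PP, EREG at 11.90 with I3P and 11.36 with PP, and SNX32 at 5.85 with I3P, while SNX33 was highest at 9.11 with HPP. In replicate 4, CEP170P1 was lowest at 7.84 with HPP and NOX3 at 7.41 with DMSO.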

How the results depend on the processing

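The direction of all 6 SNX9 differences held under all alternatives run, which were the replicate block (fixed or random), only the 10 arrays compared, cyclic loess, equal array medians, filters at the 25th percentile and median of level, all probe sets, a variance trend, and each array or each replicate number left out. I3P minus DMSO ranged from 0.38 to 0.45, I3P minus HPP from 0.26 to 0.32 and I3P minus PP from 0.32 to 0.39. HPP minus DMSO ranged from 0.11 to 0.18, PP minus DMSO from 0.034 to 0.10 and HPP minus PP from 0.045 to 0.094, and none of these 3 passed in any of them, the adjusted exact permutation p included. With the replicate block, HPP minus DMSO had an adjusted p of 0.944, and the block changed no call of SNX9. Among the other sorting nexins, endocytosis, actin and neighbour genes 0 were called throughout. Exact sign flips within the same-number pairs, chosen after seeing the data, gave an adjusted p of 0.188 for each of the 3 comparisons without I3P. AHR targets called with I3P were 3, and 6 with the replicate block and 5 with the random block. They were 5 to 6 with the block and 1 number left out, and 0 to 3 with arrays left out and no block. They were 0 without DMSO replicate 1, 2, 4 or 5, without I3P replicate 1, 2 or 4, and without number 1, 2 or 4. With HPP they were 0, and 2 with the replicate block, or 0 to 2 with 1 number left out as well. Over all genes the calls with I3P were 9 without and 68 with the block, 38 with the random block, 3 with only the 10 arrays and 0 to 10 with arrays left out and no block. They were 0 and 5 with HPP, 0 and 13 for I3P minus HPP, 10 and 102 for I3P minus PP and 0 and 3 for HPP minus PP. Of the 8 genes most like SNX9 over 20 arrays, 3 to 6 stayed among the 8 when 1 number was left out, 4 by Spearman's rho and 7 with cyclic loess. Of the 5 apart from treatment 0 to 2 stayed when 1 number was left out, and of the 5 apart from number 0 stayed by Spearman's rho. Among other named genes, 43 settings ended a call with its direction kept, 24 added one, and 94 turned the sign of a difference that was not called, and all but 1 of these left out an array or a replicate number. Over those the differences with I3P ranged from -0.058 to 0.052 for DNM2, -0.087 to 0.28 for NOX3, -0.63 to 0.11 for SNX32 and -0.23 to 0.020 for TFB1M. With HPP they ranged from -0.24 to 0.070 for NOX3, -0.079 to 0.036 for RAB5A, -0.10 to 0.071 for RHOA, -0.16 to 0.024 for SNX18, -0.042 to 0.099 for SNX19, -0.0043 to 0.29 for SNX32, -0.0059 to 0.061 for SYNJ2 and -0.044 to 0.054 for WASL. With PP they ranged from -0.050 to 0.20 for AHRR, -0.15 to 0.031 for CYP1B1, -0.064 to 0.13 for EREG (-0.0015 with cyclic loess), -0.073 to 0.26 for NOX3, -0.045 to 0.020 for RAB5A, -0.00656 to 0.13 for RHOA, -0.12 to 0.44 for SERPINB2, -0.11 to 0.042 for SNX18, -0.12 to 0.036 for STC2, -0.0047 to 0.062 for SYNJ2, -0.088 to 0.048 for TFB1M, -0.16 to 0.034 for TIPARP and -0.079 to 0.0039 for WASL. With the replicate block and 1 number left out, the following values turned sign, the number left out being in parentheses. With I3P they were 0.0074 and 0.037 for DNM2 (2 or 5), -0.087 for NOX3 (4) and 0.020 for TFB1M (3). With HPP they were 0.024 for SNX18 (3), -0.025 and -0.042 for SNX19 (2 or 3) and 0.016 and 0.021 for WASL (1 or 3). The others with HPP were 0.011 for RAB5A (4), 0.0091 and 0.071 for RHOA (3 or 4), and 0.033, 0.045 and 0.031 for NOX3 (1, 3 or 5). With PP they were 0.019 and 0.0041 for SNX18 (3 or 4), -0.0016 for SYNJ2 (5) and 0.020 for RAB5A (1). The others with PP were -0.00656 for RHOA (5), -0.027 for NOX3 (4), 0.015 and 0.048 for TFB1M (1 or 3) and -0.037 for EREG (2). The cause was not tested.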
